A study of Rattus norvegicus with 20 samples.

Results

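Subplate neurons that had spent 96 h above a layer of cortical feeder cells were compared with subplate neurons kept for 96 h above wells without cells, 10 of the 20 Affymetrix rat arrays of the series. The members were the arrays labelled cocultured 96h (5 biological replicates) and control 96h (5 biological replicates). The other 10 arrays, the same treatments after 24 h, entered the estimate of the spread and a test of whether a change at 96 h differed from the change at 24 h. All cells came from the posterior neocortex of rat embryos at embryonic day 17 (E17) and were selected by immunopanning for p75, a receptor of neurotrophins, so that both groups shared tissue, panning and serum-free medium. Cells were plated at 22100 per well on coverslips. For coculture the coverslips stood on wax spacers above feeder wells of 650000 cortical cells, made from the cells that the panning antibody had not held, while control wells held spacers and medium alone. Contact between the layers was thus prevented, and medium was not renewed during the 96 h. RNA, generally from 6 pooled coverslips, was amplified in 2 rounds from 100 ng, and the labels name no genotype or drug that distinguishes the groups. The labels describe control neurons as having few synapses and cocultured ones as induced to form them, and the 96 h arrays were to show changes on a longer time scale. Beyond the words biological replicate, nothing says that replicates came from separate dissections, so p-values measure the spread between these samples.

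Subplate neurons are among the first neurons born in the cortex and lie beneath the cortical plate, where they receive early thalamic input and guide its growth before most of them die. Neurons grown at low density form few synapses unless glia or other cells supply soluble and contact signals, among them cholesterol carried by apolipoprotein E, thrombospondins and trophic factors. Markers of progenitors and glia are given before the neuronal genes, since the largest changes were among them.

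The deposited values are ratios of each probe set to its median over the 20 arrays, so that the level of a gene cannot be set against that of another gene and the absolute signal is unknown. Each array was centred on the median of its annotated expressed probe sets, and a gene's value is the mean centred log2 ratio of its probe sets. A change is the cocultured minus the control mean on that scale, given with its standard error from the limma fit, and a gene is said to have risen or fallen where its Benjamini-Hochberg adjusted p over 8106 named genes was under 0.05. The number of arrays, 5 against 5, limits the precision.

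The arrays themselves differed between the groups before any gene was considered. The 18 probe sets of hybridisation controls, transcripts of bacteria and phage added to each sample, had a mean log2 ratio of 0.70 ± 0.64 in cocultured and -0.63 ± 0.66 in control arrays (SD, n = 5 each; difference 1.33, two-sided exact permutation p = 0.0238), and were higher in the coculture of 5 of 5 same-numbered pairs. The median of the expressed probe sets was -0.18 ± 0.22 in cocultured and 0.05 ± 0.06 in control arrays (difference -0.24, exact permutation p = 0.0238), and that of all other probe sets was 0.20 ± 0.23 against -0.07 ± 0.09 (difference 0.27, exact permutation p = 0.0317). These 2 median differences gave exact permutation p-values of 0.0556 to 0.0714 when any one of control replicates 1 to 4 was left out, while the difference of the hybridisation controls kept p-values of 0.0079 to 0.0476 without any one array. The interquartile range of the expressed probe sets ran from 0.27 to 1.07 in cocultured and from 0.31 to 0.51 in control arrays (exact permutation p = 0.516). Cocultured replicates 5 (1.07) and 1 (0.65) had the widest spread, and they also had the highest hybridisation control levels, 1.62 and 1.03. Counts and calls that changed by over 1.5 times or changed sign when the control level entered the fit as a covariate are given beside the results. Since that level moved with coculture in every pair, the covariate and coculture can be told apart only in part, and the part of these array measures in the results was not tested otherwise.

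**Figure D1:**
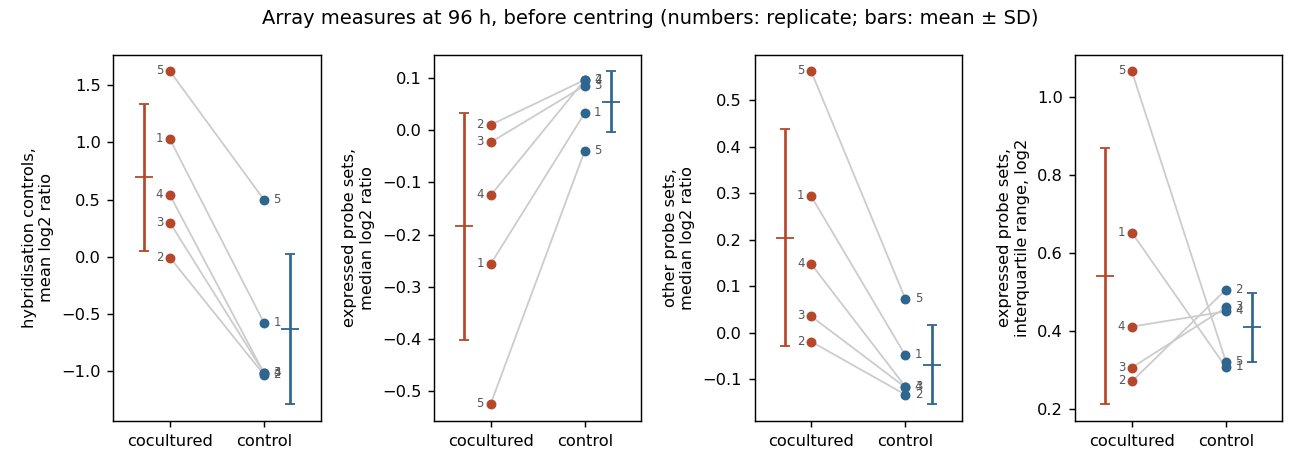
Measures of each array at 96 h before centring, on the log2 scale, with cocultured arrays at the left and control arrays at the right of each panel. Points are arrays marked with their replicate number, grey lines join equal numbers, and bars give the mean and SD (n = 5). The hybridisation controls were higher and the expressed median lower in the coculture of 5 of 5 pairs, and cocultured replicate 5 had the widest spread (1.07).

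A large share of the measured genes differed between cocultured and control cultures at 96 h. Of 8106 named genes, 1272 rose (15.7%) and 2495 fell (30.8%), and 232 of those that rose and 354 of those that fell changed by over 2-fold. In 5 of 5 same-numbered pairs the direction was the same for 1158 of the 1272 and 2175 of the 2495. These genes were called on the same arrays, so the pair counts describe the calls and are no separate support. The median change of all named genes was -0.10 after centring, and the changes of gene groups are to be read against it. Risen genes made up 33.8% of the calls; without centring they made up 15.1% (599 rose and 3357 fell), with a median change of -0.34. With the replicate number as a block, 1998 rose (24.6%) and 3146 fell (38.8%). With the hybridisation covariate 786 rose (9.70%) and 964 fell (11.9%), and 453 of the 1272 and 777 of the 2495 kept their call. Counts of list members are to be read against the shares of the same fit. Without block or covariate these are 15.7% that rose and 30.8% that fell. With covariate and block together 8 rose and 3 fell. Of 134 called genes given with values in this report, 4 kept their call in that fit. Fabp7, Sox2, Apoe, Gfap, Pdgfra, Bdnf, Atf4 and Gpat3 were among those that lost it.

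The largest rises belonged to genes of radial glia, of astrocytes and of oligodendrocyte precursors. Fabp7, the fatty acid binding protein of radial glia, had centred log2 ratios of 1.36, 1.02, 0.65, 0.86 and 1.83 in cocultured replicates 1 to 5, against -4.99, -3.97, -3.28, -5.55 and -4.38 in control replicates 1 to 5. The groups stood far apart, and Fabp7 was 47.8-fold higher in coculture (change 5.58 ± 0.61, adjusted p = 2.13e-06). Sox2, a transcription factor of neural progenitors, had values of 1.55, 1.04, 0.73, 1.51 and 1.84 in cocultured and -2.36, -2.09, -2.10, -2.45 and -1.14 in control cultures (change 3.36 ± 0.27, adjusted p = 4.81e-08). Every cocultured value of Sox2 lay above every control value. The annotated probe sets were those called present in 10 of 20 arrays, which the cocultured arrays of both times could supply alone. A gene absent from control cultures could thus enter through coculture, and the counts of the glial lists carry this limit. Absolute signal is unknown, so low control values may lie at background. The fold differences of Fabp7, Apoe, Gfap and Pdgfra may then be ratios to a floor.

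Of the radial glia and progenitor list 11 of 13 measured members rose and 0 fell, with a median change of 1.44 against -0.10 for all genes. Besides Fabp7 and Sox2, the receptor phosphatase Ptprz1 rose by 2.91 ± 0.23, the receptor Notch1 by 1.87 ± 0.28, the fibroblast growth factor receptor Fgfr2 by 1.79 ± 0.27 and the glutamate transporter Slc1a3 by 1.77 ± 0.24. The 2 probe sets of Slc1a3 disagreed, at -0.02 and 3.56. Pax6, which specifies cortical progenitors, rose by 1.17 ± 0.24 and did not pass with the hybridisation covariate (0.58, adjusted p = 0.0553). With the covariate 7 of 13 rose, with a median of 0.79.

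The astrocyte list had 11 rises and 1 fall among 18 measured genes (median 1.19), and Aldh1l1 and Slc1a2 were not among the named genes. Apoe, which carries cholesterol between cells and is secreted mainly by astrocytes, had values of 1.62, 2.24, 2.19, 2.14 and 2.80 in cocultured and -2.28, -2.27, -1.82, -2.22 and -1.46 in control cultures, an 18.5-fold difference (4.21 ± 0.38, adjusted p = 1.64e-07). Gfap, the intermediate filament of astrocytes, had values of 1.87, 2.53, 2.20, 1.97 and 2.38 in cocultured and -0.07, -0.89, -0.13, -0.53 and -0.19 in control cultures, a 5.87-fold difference (2.55 ± 0.28, adjusted p = 2.2e-06). Neither gene's groups overlapped. The gap junction protein Gja1 rose by 2.75 ± 0.45, Ndrg2 by 2.71 ± 0.44 and Sparcl1, a secreted matrix protein that promotes synapse formation, by 1.44 ± 0.18. Cocultured replicate 5 was the highest for Gja1 (3.29) and Ndrg2 (3.13), each well above the other 4. Aqp4, the water channel of mature astrocytes, had a change of 0.05 ± 0.22 (adjusted p = 0.87), and the protease inhibitor Cst3 was the member that fell (-0.48 ± 0.15, but -0.04 with the covariate). With the covariate 9 rose and 0 fell (median 0.52), and with the block 13 rose and 3 fell.

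The oligodendrocyte list had 5 rises and 0 falls among 9 measured genes (median 1.72). Pdgfra, through which PDGF drives oligodendrocyte precursors to divide, had values of 2.09, 0.86, 0.83, 1.39 and 2.72 in cocultured and -3.02, -2.77, -3.0, -3.84 and -2.48 in control cultures, a 24.2-fold difference (4.60 ± 0.41, adjusted p = 1.37e-07). The transcription factor Olig1 had values of 1.88, 0.96, 0.80, 1.23 and 1.96 in cocultured and -2.50, -2.17, -1.99, -3.58 and -2.67 in control cultures (3.94 ± 0.38). Cocultured replicates 1 and 5, the arrays with the widest spread, were the highest for both genes. Bcas1 (3.89 ± 0.42), the early oligodendrocyte enzyme Cnp (1.72 ± 0.28) and the tight junction protein Cldn11 (1.91 ± 0.55) rose too; Cldn11 did not pass with the covariate (0.58, adjusted p = 0.444). Genes of mature myelin did not pass: Mbp had a change of -0.04 ± 0.17, Mog of 0.27 ± 0.13 (adjusted p = 0.101, blocked 0.00903) and Mag of 0.34 ± 0.22. The precursor markers Olig2, Sox10 and Cspg4 were not among the named genes. With the covariate 4 of the 9 rose (median 0.58). In a culture measured as a whole, more cells of a type and more RNA per cell cannot be told apart.

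**Figure D2:**
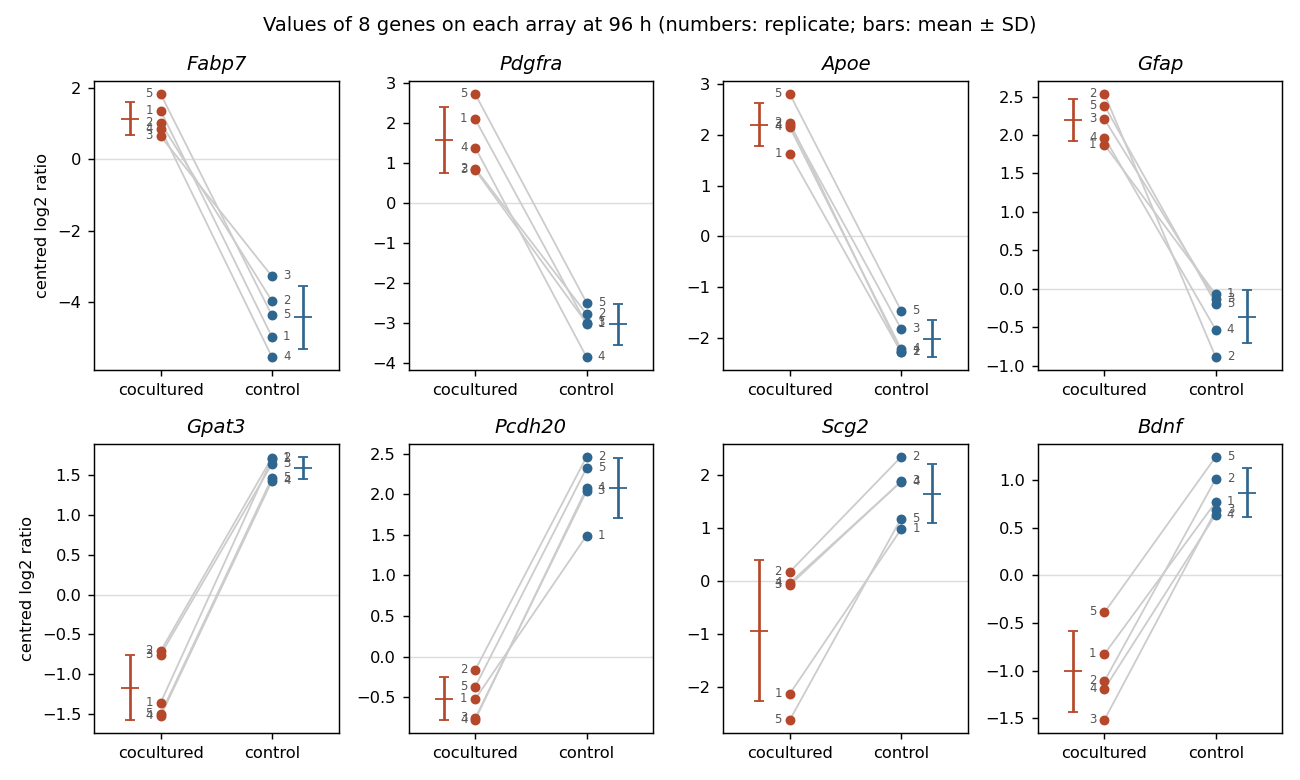
Centred log2 ratio of 8 genes on each array at 96 h, cocultured at the left and control at the right of each panel; points carry the replicate number, grey lines join equal numbers, and bars are mean ± SD (n = 5). Fabp7, Pdgfra, Apoe and Gfap were higher and Gpat3, Pcdh20, Scg2 and Bdnf lower in coculture, with no overlap between groups.

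Markers of other cells moved less evenly. None of the 14 listed genes of microglia and macrophages was among the named expressed genes, so their part was not tested. Of the few measured genes of endothelial cells, meningeal fibroblasts and Cajal-Retzius cells, 1 of 2, 1 of 2 and 1 of 3 rose. These were the vascular receptor Flt1 (1.09 ± 0.41, but -0.23 with the hybridisation covariate), fibronectin (Fn1, 1.34 ± 0.23) and the calcium buffer Calb2 (1.87 ± 0.27), which interneurons also express. With the block 2 of the 2 fibroblast and 2 of the 3 Cajal-Retzius genes rose. In the interneuron list 8 of 11 rose and 1 fell (median 0.65). The progenitor and interneuron factor Sox6 rose by 1.29 ± 0.20, the homeobox gene Dlx5 by 0.88 ± 0.18 and Gad1, which makes the transmitter GABA, by 0.78 ± 0.28, though Dlx5 and Gad1 did not pass with the covariate (adjusted p = 0.0509 and 0.825). The neuropeptide gene Sst had values of -0.49, -0.16, -0.10, 0.25 and 0.15 in cocultured and 1.20, 3.53, 2.66, 2.70 and 0.75 in control cultures and fell (-2.24 ± 0.43, adjusted p = 0.000576). Sst was thus the only fall within its list, in which Npy and Slc32a1 did not pass. With the covariate 4 members of the list rose and 1 fell (median 0.38).

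Genes of cell division followed the progenitor genes in part: 9 of 17 rose and 2 fell (median 0.51). Pclaf, which binds the replication clamp, rose by 1.76 ± 0.22, the ribonucleotide reductase subunit Rrm2 by 1.70 ± 0.31 and the mitotic kinase Cdk1 by 1.47 ± 0.25. The replication factors Mcm6 (-0.58 ± 0.21, but 0.09 with the covariate) and Pcna (-0.46 ± 0.11, covariate adjusted p = 0.0744) fell. Top2a did not pass (0.30 ± 0.15, adjusted p = 0.105, blocked 0.0389), and its 2 probe sets lay at -0.54 and 1.14. With the covariate 8 rose and 1 fell, at a median of 0.09. In the list of the Notch, BMP and Wnt pathways, signals that keep progenitors in their state, 6 of 13 rose and 2, Dkk3 and Fzd3, fell (median 0.34). With the covariate 3 rose and 2 fell (median 0.04).

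General neuronal genes stayed close to the median of all genes. Of 18 measured members 3 rose and 3 fell, with a median change of -0.11. With the block 5 rose and 8 fell, and with the covariate 6 rose and 1 fell (median 0.07). Snap25, a protein of vesicle fusion, had values of 0.30, 0.00, 0.05, 0.17 and -0.15 in cocultured and 0.28, -0.10, -0.05, 0.01 and -0.03 in control cultures (0.05 ± 0.12, adjusted p = 0.74). Its groups overlapped throughout. The tubulin Tubb3 (-0.24 ± 0.25, blocked adjusted p = 0.0227), the microtubule protein Map2 (-0.30 ± 0.23, blocked adjusted p = 0.0304) and Stmn2 (-0.08 ± 0.15) did not pass without the block. Tubb3 and Stmn2 passed upward with the covariate (0.56 and 0.36), so their direction depends on that choice. The neuronal splicing factor Rbfox3 rose by 0.81 ± 0.10, Elavl3 by 0.62 ± 0.21 and the growth cone protein Basp1 by 0.32 ± 0.09. The 3 probe sets of Basp1 disagreed, at -0.11, 0.91 and 0.14, and its call was lost with the first of them alone. The neurofilament genes Nefl (-1.76 ± 0.35) and Ina (-0.49 ± 0.14) and the glycolytic enzyme of neurons Eno2 (-0.46 ± 0.16) fell. With the covariate Elavl3, Basp1, Ina and Eno2 no longer passed (changes 0.04, 0.14, -0.09 and -0.06).

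Subplate genes did not move one way: 4 of 9 measured members rose (Inpp4b, Lpar1, Serpini1 and Svil) and 2 fell (median 0.25). With the block 4 rose and 3 fell, and with the covariate 1 rose and 0 fell. The p75 gene Ngfr itself, Cplx3 and Nxph4 were not among the named genes. Nr4a2, a nuclear receptor of subplate neurons, had values of 0.36, 0.09, 0.38, 0.10 and -0.75 in cocultured and 0.04, -0.33, -0.27, -0.64 and 0.13 in control cultures (0.25 ± 0.21, adjusted p = 0.33). The matricellular protein gene Ccn2 had values of -0.14, 0.15, 0.28, -0.77 and -1.97 in cocultured and 1.16, 1.56, 1.74, 1.24 and -0.14 in control cultures (-1.60 ± 0.45, adjusted p = 0.0083). Its groups overlapped through control replicate 5, and Ccn2 did not pass with the covariate (-0.30). The corepressor Tle4 fell by 0.89 on the log2 scale, with a change of 0.17 with the covariate. In the cortical glutamatergic list 3 of 13 rose (Bcl11b, Lmo4 and Neurod1) and 3 fell (Mef2c, Slc17a6 and Slc17a7; median 0.05). With the block 3 rose and 5 fell, and with the covariate 4 rose and 2 fell.

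Genes that respond to neuronal activity fell more often than they rose: 8 of 20 fell and 2 rose (median -0.39), where 30.8% of all genes fell. With the covariate 8 fell and 1 rose (median -0.50). Bdnf, the neurotrophin gene induced by calcium influx, had values of -0.83, -1.11, -1.52, -1.19 and -0.39 in cocultured and 0.77, 1.02, 0.68, 0.64 and 1.25 in control cultures, 3.68-fold lower (-1.88 ± 0.19, adjusted p = 8.96e-07). All cocultured values were below all control values, although the 2 probe sets changed by -3.38 and -0.38. The transcription factor Klf4 (-1.89 ± 0.25), the phosphatase Dusp1 (-1.66 ± 0.24), the secreted neuropeptide precursor Vgf (-1.62 ± 0.16), the synaptic scaffold Homer1 (-1.24 ± 0.10), the immediate early gene Ier2 (-1.20 ± 0.26) and the repressor Nfil3 (-0.99 ± 0.13) fell as well. Ier2 did not pass with the covariate (-0.68, adjusted p = 0.0785). Egr1 (1.16 ± 0.42) and Klf10 (0.87 ± 0.16) rose, and Egr1 lost its call with the covariate (adjusted p = 0.0806). Fos averaged -0.98 ± 1.97 in cocultured and 0.39 ± 0.35 in control cultures, and its change did not pass (-1.38 ± 0.65, adjusted p = 0.0853). In the MAP kinase feedback list 0 of 9 rose and 1, Spry2, fell (median -0.17). With the block 1 rose and 2 fell, and with the covariate 0 rose and 3 fell (median -0.33).

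The activity-regulated promoters are shown because many such genes carry the cyclic AMP response element TGACGTCA, a palindrome bound by CREB. This motif was searched in the 250 bases upstream of the RefSeq start of each gene (build GRCr8), on both strands. It was present in 4 of 16 promoters of the list (25%), against 1.7% of 27457 promoters in the table and 3.35% of those of 6689 named genes. Of these, Vgf, Dusp1 and Ier2 fell and Btg2 did not pass (-0.21 ± 0.19). The matched sites of the genes that fell, in capitals within up to 20 bases on each side, lie at chr12:25277083-25277130 (minus strand), chr10:17184709-17184756 (plus) and chr19:40399287-40399334 (plus).
Vgf: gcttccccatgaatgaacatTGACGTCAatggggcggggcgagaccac
Dusp1: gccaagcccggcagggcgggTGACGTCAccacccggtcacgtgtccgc
Ier2: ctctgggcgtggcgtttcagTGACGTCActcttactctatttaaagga
A match describes the letters of the window and no binding was measured.

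Neuropeptide and dense-core vesicle genes fell in 11 of 19 measured members and rose in 3 (median -0.52). Scg2, a granin that packs peptide into vesicles, had values of -2.12, 0.17, -0.08, -0.04 and -2.61 in cocultured and 0.98, 2.33, 1.87, 1.87 and 1.18 in control cultures (-2.58 ± 0.49, adjusted p = 0.00051). All cocultured values lay below all control values, with replicates 1 and 5 far below the other 3. The amidating enzyme Pam (-2.06 ± 0.15, adjusted p = 2.57e-08) and the vesicle membrane protein Ptprn (-0.96 ± 0.14) fell, as did Sst and Vgf above. The rises were in Cck, the cholecystokinin gene (1.10 ± 0.13, adjusted p = 5e-06), Cpe and Scg3. With the covariate 7 fell and 1 rose. Among G-protein and cyclic AMP genes 12 of 31 fell and 1 rose (median -0.30), where 30.8% of all genes fell. The regulators of G-protein signalling Rgs2 (-1.62 ± 0.20) and Rgs4 (-1.17 ± 0.18) and the protein kinase A subunit Prkar2a (-0.74 ± 0.13) fell. The inhibitory G-protein subunit Gnai1 (-2.28 ± 0.51) fell also, with overlapping groups, and did not pass with the covariate (-0.57, adjusted p = 0.0567). The adenylyl cyclase Adcy2 rose (0.69 ± 0.11). With the block 15 of the 31 fell and 3 rose, and with the covariate 4 fell and 3 rose. Of all genes 38.8% fell with the block and 11.9% with the covariate, so with the covariate the list was near all genes.

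Trophic factors and their receptors split, with 7 of 18 that rose and 4 that fell (median 0.23). Falls besides Bdnf were in Nrn1, a membrane-anchored promoter of neurite growth, and in the GDNF receptor genes Gfra1 (-1.35 ± 0.25) and Ret (-0.77 ± 0.14). Nrn1 had values of -1.02, -1.30, -1.31, -1.26 and -1.39 in cocultured and 0.55, 0.45, 0.48, 0.22 and 0.49 in control cultures (-1.69 ± 0.11, adjusted p = 9.58e-09). The replicates of each group lay close together and far from the other group. Rises included the neurotrophin Ntf3 (1.81 ± 0.35), which stood beside the fall of its relative Bdnf, Fgfr2 and the growth factor receptor Igf1r (0.86 ± 0.16). With the covariate 5 of the list rose and 6 fell (median 0.12).

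Synaptic lists differed in direction at 96 h in the centred fit without block or covariate, and less so in other fits. In the presynaptic list 6 of 36 rose and 15 fell (median -0.23), where 15.7% and 30.8% of all genes did. The vesicle calcium sensor Syt5 (-1.33 ± 0.27), the vesicular glutamate transporter Slc17a7 (-1.10 ± 0.24), the vesicle GTPase Rab3c (-1.03 ± 0.23) and Syt4 (-0.76 ± 0.17) fell, and the synapsin Syn2 rose (1.15 ± 0.19). The 2 probe sets of Syt4 disagreed, at -0.18 and -1.33, and its call was lost with the first alone. With the covariate 3 rose and 3 fell, and Slc17a7 and Rab3c did not pass (adjusted p = 0.113 and 0.0594). Against the same shares the excitatory postsynaptic list went the other way, with 8 of 30 that rose and 2 that fell (median 0.05). The NMDA receptor subunit Grin3a (1.13 ± 0.13) and the kinase Camk2a (0.86 ± 0.11) rose. Homer1 fell, as did the scaffold Dlg2 (-0.81 ± 0.12, with probe sets between -1.55 and 0.12). With the block 10 rose and 9 fell, with the covariate 11 rose and 3 fell, and without centring 6 rose and 7 fell.

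Of the inhibitory synapse genes 4 of 20 rose and 5 fell (median 0.07), with Gad1 and Gabrg3 among the rises and Glrb and Slc12a2 among the falls. These counts were near the shares of all genes, of which 15.7% rose and 30.8% fell. The adhesion protein Nlgn2 rose by 0.92 ± 0.19, and the receptor-associated Gabarap fell (-1.07 ± 0.29). Neither passed with the covariate (adjusted p = 0.0788 and 0.494), under which 5 of the list rose and 0 fell. Synaptic adhesion genes and cadherins rose in 9 of 26 and fell in 3 (Cdh13, Pcdh8 and Pcdh20; median 0.26). The protocadherin Pcdh20 had values of -0.52, -0.16, -0.76, -0.77 and -0.37 in cocultured and 1.49, 2.46, 2.04, 2.07 and 2.32 in control cultures, 6.04-fold lower (-2.59 ± 0.22, adjusted p = 1.24e-07). Its relative Pcdh19 (1.27 ± 0.20) and the synaptic adhesion protein Cadm1 (1.02 ± 0.12) rose. With the block 12 of these adhesion genes rose and 5 fell, and with the covariate 7 rose and 2 fell.

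Axon guidance genes rose in 6 of 24 and fell in 1 (median 0.13). The one fall was in Slit2, a repellent of growing axons (-1.94 ± 0.21, adjusted p = 1.89e-06), while its relative Slit3 (1.02 ± 0.27, 0.35 with the covariate) and the ephrin Efnb3 (0.61 ± 0.12) rose. With the block 9 guidance genes rose and 2 fell, and with the covariate 4 rose and 2 fell (median -0.0061). Voltage-gated channels rose in 7 of 29 and fell in 6 (median 0.07), among them the potassium channels Kcna4 (-1.48 ± 0.20) and Kcnma1 (-0.73 ± 0.12) and the calcium channel subunit Cacna2d3 (1.04 ± 0.22, covariate adjusted p = 0.0553). The 2 probe sets of Kcnma1 disagreed, at -0.11 and -1.34, and its call was lost with the first alone. With the block 12 channel genes rose and 8 fell, and with the covariate 5 rose and 5 fell (median -0.12). Extracellular matrix genes rose in 10 of 26 and fell in 5 (Acan, Mmp16, Nid2, Sdc1 and Thbs2; median 0.25). Collagen IV (Col4a1, 0.90 ± 0.15) and the glypican Gpc2 (0.94 ± 0.18) rose, and Thbs2, a thrombospondin of the family that astrocytes release to promote synapses, fell (-0.66 ± 0.13). With the block 12 matrix genes rose and 9 fell, and with the covariate 6 rose and 3 fell (median 0.10). Smoc2, a matricellular calcium-binding protein, had values of 1.97, -0.05, 0.41, 0.85 and 2.95 in cocultured and -1.48, -2.85, -2.52, -2.43 and 0.82 in control cultures (2.92 ± 0.74, adjusted p = 0.00412). Replicates 1 and 5 were the highest within both groups, the groups overlapped, and Smoc2 did not pass with the covariate (0.34, adjusted p = 0.0936). Without centring, the medians of the glutamatergic (-0.19), excitatory (-0.19), inhibitory (-0.17), guidance (-0.11), ion channel (-0.17) and trophic (-0.01) lists had the opposite sign.

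**Figure D3:**
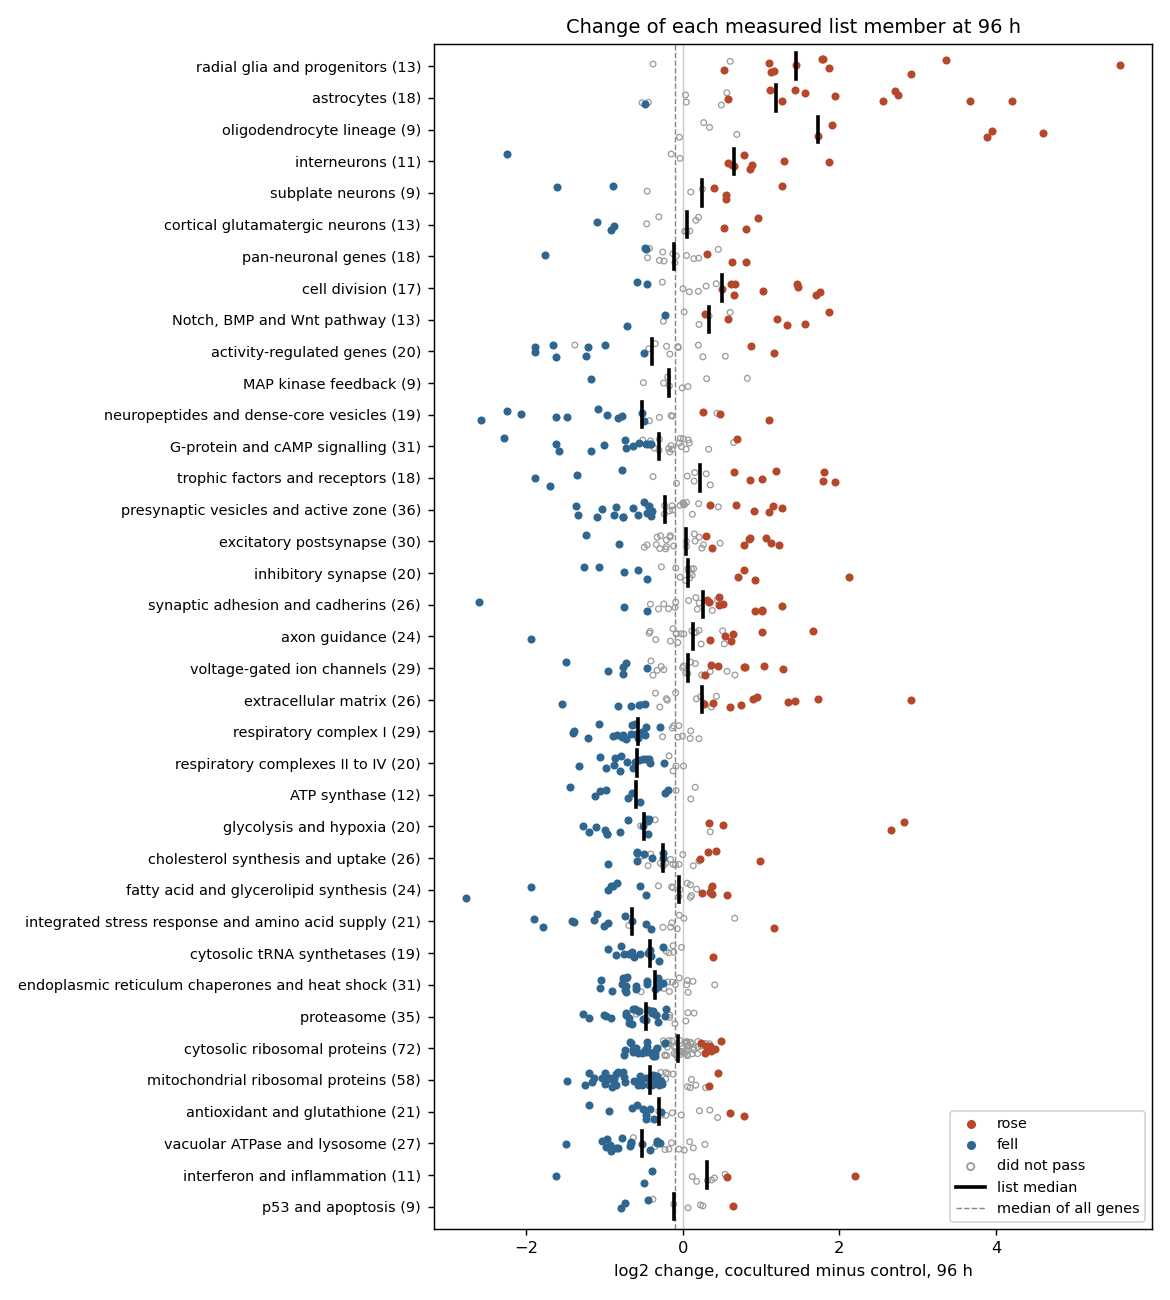
Log2 change at 96 h, cocultured minus control, of each measured member of 37 gene lists with at least 9 measured genes. Filled points are genes that rose (red) or fell (blue), open points did not pass, black bars are list medians and the dashed line is the median of all 8106 genes (-0.10). The 3 glial lists lie to the right, and the lists of respiration, stress response and protein turnover to the left.

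Genes of energy metabolism fell widely, as did several lists given below. Of all genes 30.8% fell, and 11.9% with the hybridisation covariate. Of complex I, which passes electrons from NADH into the respiratory chain, 20 of 29 measured subunits fell and 0 rose (median -0.57). Complexes II to IV had 16 of 20 that fell and 0 that rose (median -0.58), and ATP synthase 9 of 12 and 0 (median -0.59). Ndufs7, a subunit of complex I, had values of -0.55, -0.35, -0.40, -0.48 and -1.14 in cocultured and 0.79, 1.06, 1.08, 0.89 and 0.23 in control cultures (-1.39 ± 0.18, adjusted p = 1.05e-05). Cyc1 of complex III (-0.71 ± 0.09), Cox5b of complex IV (-1.06 ± 0.20) and Atp5f1d of ATP synthase (-1.44 ± 0.24) fell with it. With the hybridisation covariate 10 of 29, 7 of 20 and 4 of 12 fell, with medians of -0.28, -0.27 and -0.27, and 1 of complex I rose. With the block 1 complex I and 1 ATP synthase gene rose. Mitochondrial ribosomal proteins fell in 40 of 58 and rose in 2 (Mrpl36 and Mrpl51; median -0.42), among them Mrps34 (-1.25 ± 0.17), and 19 of them fell and 1 rose with the covariate. Cytosolic ribosomal proteins, in contrast, had a median of -0.06, with 7 of 72 that rose (Rpl13a by 0.35 ± 0.08) and 20 that fell, with 13 and 27 under the block and 1 and 2 under the covariate; near-identical pseudogenes make such probe sets uncertain.

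Genes of glycolysis and hypoxia fell in 13 of 20 and rose in 4 (Bnip3, Epas1, Pfkp and Txnip; median -0.49). Aldolase (Aldoa, -1.20 ± 0.22) and triosephosphate isomerase (Tpi1, -1.10 ± 0.21) fell. Txnip, which limits glucose uptake and rises with glucose, had values of 0.61, 1.83, 1.46, 1.66 and 1.63 in cocultured and -1.40, -1.84, -1.56, -1.47 and -0.67 in control cultures, 7.08-fold higher (2.82 ± 0.22, adjusted p = 3.96e-08). The hypoxia-inducible factor Epas1, which astrocytes and vascular cells express, rose by 2.66 ± 0.35, highest in replicate 5 (2.86). With the covariate 6 of the list fell and 4 rose. Ak4, a mitochondrial adenylate kinase, fell by 1.93 on the log2 scale (SE 0.14, adjusted p = 1.27e-08).

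The integrated stress response, in which the factor ATF4 induces amino acid transport and synthesis when amino acids are short or protein folding fails, fell in part. Of its 21 measured genes 12 fell, 1 rose and 8 did not pass (median -0.65), where 30.8% of all genes fell. With the block 13 fell and 2 rose. Atf4 had values of -0.40, 0.02, -0.01, -0.11 and -0.81 in cocultured and 0.88, 1.63, 1.38, 1.35 and 0.43 in control cultures (-1.39 ± 0.24, adjusted p = 0.000197). Asparagine synthetase (Asns) had values of -0.46, -0.07, -0.01, -0.00 and -0.50 in cocultured and 1.05, 1.44, 1.30, 1.23 and 1.01 in control cultures (-1.41 ± 0.14, adjusted p = 6.44e-07). The groups of both genes were apart. The cationic amino acid transporter Slc7a3 (-1.90 ± 0.22), the serine synthesis enzyme Psph (-1.78 ± 0.22), the transporter subunit Slc3a2 (-1.13 ± 0.10) and the glutathione-degrading enzyme Chac1 (-1.0 ± 0.17) fell, while Phgdh, which opens serine synthesis and is high in astrocytes, rose (1.17 ± 0.27, adjusted p with the covariate 0.0869). Cytosolic tRNA synthetases fell in 13 of 19 and rose in 1 (Vars1, 0.39 ± 0.15; median -0.42), including Nars1 (-0.95 ± 0.13), Tars1 (-0.68 ± 0.16) and Mars1 (-0.64 ± 0.14). With the covariate 8 of 21 and 5 of 19 fell and 0 rose in either list, and Mars1, Tars1, Vars1 and Aars1 did not pass.

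Promoters of these lists are shown for the core of the C/EBP-ATF response element, TGATGNAA, through which ATF4 acts. In the same 250-base windows and on both strands it was present in 4 of 19 promoters of the stress response list (21.1%) and 5 of 16 of the tRNA synthetase list (31.2%), against 3.27% of all 27457 promoters and 1.64% of those of 6689 named genes. Of the stress response carriers Chac1 fell and Slc1a4, Slc7a1 and Trib3 did not pass, and of the synthetase carriers Aars1 (-0.25 ± 0.08), Mars1, Nars1 and Tars1 fell and Iars1 did not pass. The sites of the 5 that fell are printed with the motif in capitals, read on the gene's strand where the match itself may be on the other; they lie at chr3:126795944-126795991 (plus), chr18:60275783-60275816 (minus), chr7:65023754-65023790 (minus), chr2:62114803-62114849 (minus) and chr19:55908350-55908397 (plus).
Chac1: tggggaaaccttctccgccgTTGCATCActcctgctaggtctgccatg
Nars1: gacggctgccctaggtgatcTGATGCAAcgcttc
Mars1: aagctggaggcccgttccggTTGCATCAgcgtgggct
Tars1: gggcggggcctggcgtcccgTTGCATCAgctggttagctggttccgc
Aars1: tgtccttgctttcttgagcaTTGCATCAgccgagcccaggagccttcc
In Nars1, Mars1 and Tars1 the site ends within 20 bases of the start, at 7, 10 and 20 bases upstream.

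Falls were also frequent among genes of protein folding and turnover. Chaperones of the endoplasmic reticulum and heat shock genes fell in 19 of 31 and rose in 0 (median -0.35), among them Herpud1 (-1.05 ± 0.16) and the heat shock cochaperone Dnajb1 (-1.05 ± 0.14). Proteasome subunits fell in 25 of 35 (median -0.47; Psmb6, -0.98 ± 0.18), and genes of the vacuolar proton pump and the lysosome in 17 of 27 (median -0.52), with 0 that rose in either list. With the covariate 13 of the 31, 5 of the 35 and 2 of the 27 fell and 0 rose, with medians of -0.18, -0.09 and -0.13, where 11.9% of all genes fell. With the block 1 chaperone and 1 lysosome gene rose. Antioxidant genes fell in 10 of 21 and rose in 2 (median -0.30; Sod2, the mitochondrial superoxide dismutase, -0.94 ± 0.18, and the glutathione transferase Gsta4, 0.78 ± 0.20; Nqo1 rose too). With the block 14 fell and 3 rose, and with the covariate 4 fell and 0 rose.

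**Figure D4:**
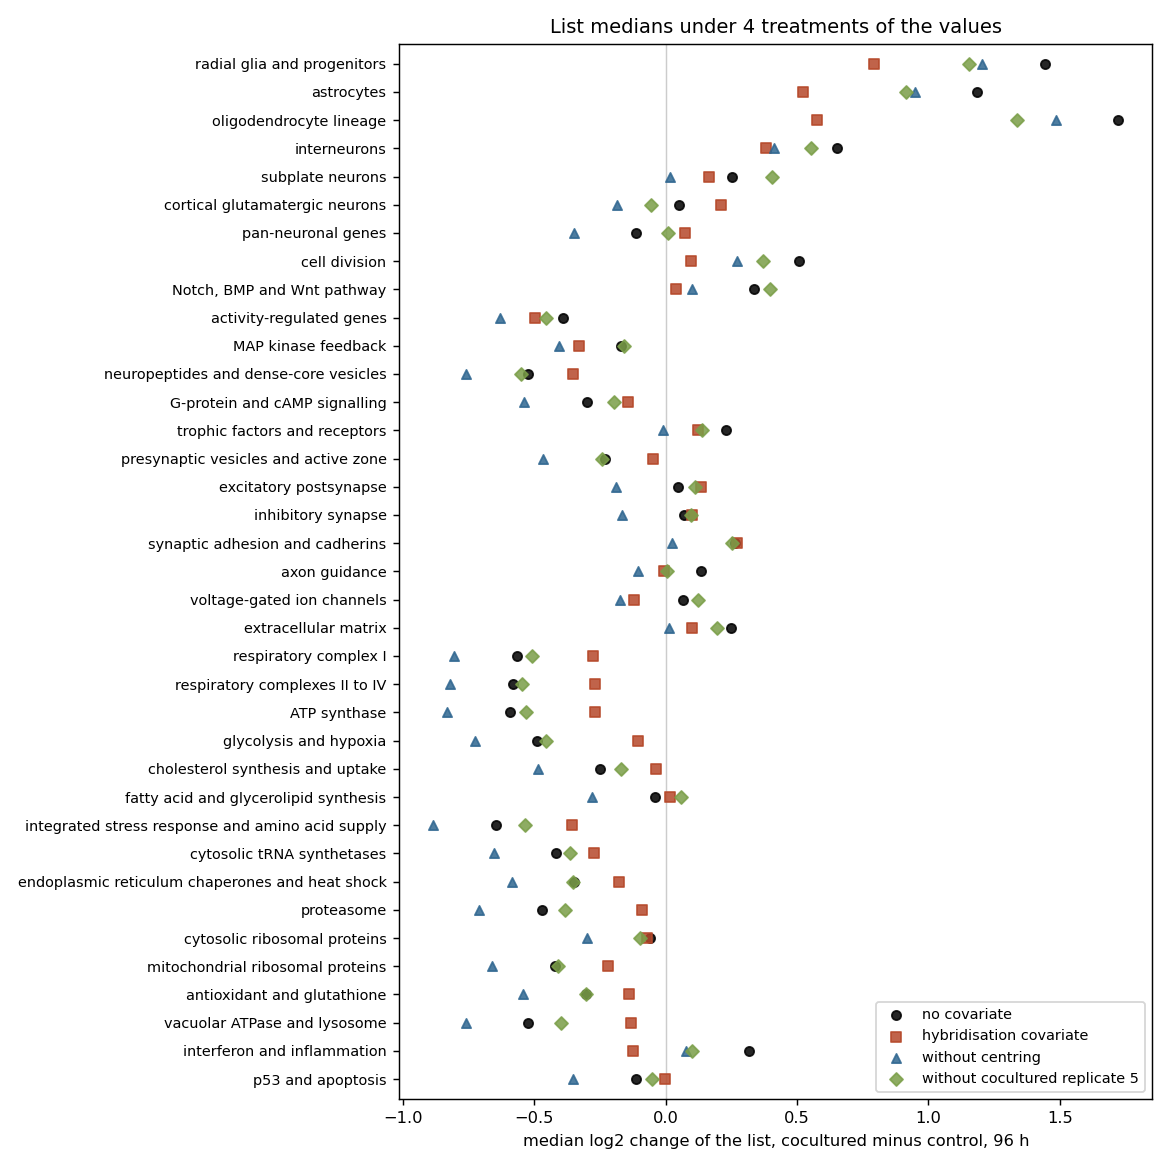
Median log2 change at 96 h, cocultured minus control, of the same 37 lists under 4 treatments of the values, namely as reported (circles), with the hybridisation control level as a covariate (squares), without centring (triangles) and without cocultured replicate 5 (diamonds). The glial medians stay above 0 and those of respiration below 0 under all 4, while the proteasome median moves to -0.09 with the covariate.

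Lipid genes showed no common direction. In the cholesterol list 8 of 26 fell and 4 rose, among them Hmgcs1, Lss and Srebf1 (list median -0.25). These counts were near the shares of all genes, of which 30.8% fell and 15.7% rose. The sterol desaturase Sc5d fell (-0.95 ± 0.15), and Hmgcs1 (0.43 ± 0.12) and Lss (0.32 ± 0.11) rose. With the block 13 fell and 5 rose, and with the covariate 2 fell and 0 rose. The sterol regulatory element TCACNCCAC was in 0 of 20 promoters of this list and in 0.976% of all promoters, and says nothing of the factor. Fatty acid and glycerolipid genes fell in 8 of 24 and rose in 5 (Acaca, Chpt1, Elovl6, Pcyt1a and Scd2; median -0.04), and the falls were large in a few genes. Gpat3, which opens triglyceride synthesis, had values of -1.36, -0.71, -0.75, -1.52 and -1.50 in cocultured and 1.71, 1.72, 1.64, 1.43 and 1.46 in control cultures, 6.78-fold lower (-2.76 ± 0.20, adjusted p = 2.65e-08). It was the largest fall of all genes that moved the same way in 5 of 5 pairs. Its mitochondrial relative Gpam (-0.84 ± 0.10), the phosphatidylethanolamine synthase Selenoi (-1.94 ± 0.17), the phosphatidylserine synthase Ptdss1 (-0.89 ± 0.12) and lipoprotein lipase (Lpl, -0.92 ± 0.17) fell as well. With the covariate 5 of the list fell and 1 rose (median 0.02).

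Of the interferon and inflammation genes 2 of 11 rose and 3, B2m, Cxcl12 and Irf9, fell (list median 0.32). These counts, and those of the p53 list below, were near the shares of all genes (15.7% rose and 30.8% fell). With the block 5 rose and 3 fell, and with the covariate 1 rose and 1 fell (median -0.12). The adhesion molecule Vcam1, which neural progenitors also carry, rose (2.19 ± 0.31), and B2m, the light chain of class I histocompatibility molecules, fell (-1.62 ± 0.15, with probe sets at -2.30 and -0.94). The 2 probe sets of Cxcl12 disagreed, at -1.03 and 0.24. In the p53 and apoptosis list 1 of 9 rose and 3 fell (median -0.11), namely Mdm2, the cell cycle inhibitor Cdkn1a (-0.79 ± 0.26) and Bax (-0.74 ± 0.14). With the block 2 rose and 3 fell, and with the covariate 1 rose and 2 fell. Outside the lists, the RNA-binding protein Zfp36l1 (2.94 ± 0.32) and the chromatin remodeller Chd7 (2.57 ± 0.49) were among the 15 largest rises. The actin-associated Pdlim1 (-2.41 ± 0.25), the transcription factor subunit Taf10 (-2.17 ± 0.26), the GTPase regulator Sipa1l2 (-2.07 ± 0.17) and the annexin Anxa4 (-2.0 ± 0.26) were among the 15 largest falls, although Anxa4 had a change of 0.16 after cyclic loess.

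The number of changes that differed from those at 24 h depended strongly on the fit, and reached 1268 genes with array weights. The change at 96 h minus the change at 24 h passed in 35 of 8106 genes (0.432%), 20 upward and 15 downward, with 748 at an unadjusted p under 0.05, in 665 (8.20%) with the replicate block and in 75 without cocultured replicate 5. Lpl had opposite calls, in that it fell at 96 h (-0.92) and rose at 24 h (1.36, adjusted p = 3.07e-05), a difference of -2.27 (adjusted p = 5.77e-05). The change of B2m was -1.62 at 96 h and -0.31 at 24 h (difference -1.31), and that of the immediate early response gene Ier5 was -1.88 at 96 h and -0.43 at 24 h (difference -1.45). The change of Ak4 was -1.93 at 96 h and -0.75 at 24 h (difference -1.18), and that of Nrn1 was -1.69 at 96 h and -0.70 at 24 h (difference -1.0), so their changes were more negative at 96 h. Ret (difference -0.99), Gpam (-0.69), Homer1 (-0.65, adjusted p = 0.0495) and the zinc finger gene Znf383 (-1.07) also passed downward.

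In the other direction, the sterol enzymes Tm7sf2 and Lss had changes of -0.09 and 0.32 at 96 h and fell at 24 h (-1.32 and -0.85), differences of 1.23 and 1.17 (adjusted p = 5.77e-05 and 0.000376). Tmem254 had a change of 0.27 ± 0.11 at 96 h (adjusted p = 0.0572, blocked 0.039) and of -0.86 at 24 h (difference 1.13). Inhbb, a subunit of the TGF-beta family ligand activin B, rose by 1.64 ± 0.14 at 96 h and had a change of 0.47 at 24 h (difference 1.17). Dgkb, a diacylglycerol kinase, had values of 2.02, 2.78, 2.76, 1.93 and 1.34 in cocultured and 0.03, -0.30, -0.08, -0.46 and -0.58 in control cultures at 96 h, a change of 2.44 ± 0.23 against 0.94 at 24 h (difference 1.51, adjusted p = 0.0479). The glial genes that led at 96 h did not pass this test without the block, and Apoe, Gfap, Gja1 and Ptprz1 were among those that passed with it. The difference was 0.69 for Fabp7 (adjusted p = 0.817, blocked 0.644), 0.60 for Pdgfra (0.773, blocked 0.375), 2.00 for Apoe (0.146, blocked 0.00993) and 1.78 for Gfap (0.0517, blocked 0.0045). For Gja1 it was 2.07 (adjusted p = 0.225, blocked 0.00404) and for Ptprz1 1.05 (adjusted p = 0.252, blocked 0.00625). Other genes named above also passed only with the block, among them Nefl, Slit2, Slc7a3, Ntf3 and Gpat3.

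**Figure D5:**
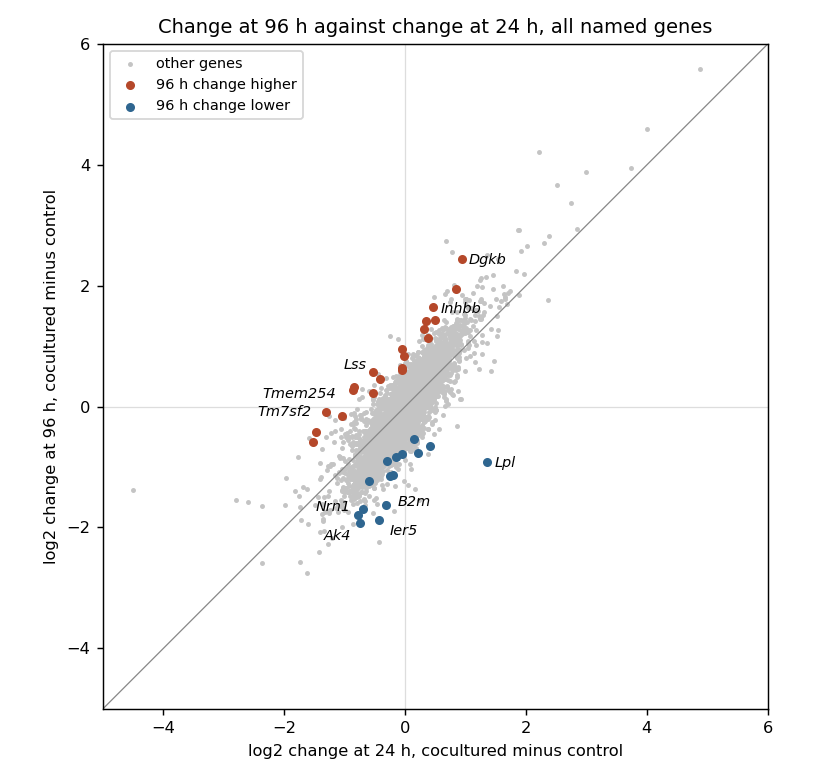
Log2 change (cocultured minus control) of 8106 genes at 96 h on the vertical axis and at 24 h on the horizontal axis, with the line of equal change. Coloured points are the 35 genes whose changes differed in the fit without the replicate block, 20 higher (red) and 15 lower (blue) at 96 h. Lpl lies apart, at -0.92 at 96 h and 1.36 at 24 h.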

How the data were processed

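The authors deposited 1 table of 31099 probe sets on 20 arrays whose values are, per the file headers, linear ratios of RMA values to each probe set's median over all arrays; 31071 medians were 1 within 0.001. RMA and MAS5 are named, without versions, per the submitters' processing notes. The table of probe sets the authors called present in 10 of 20 arrays (17243) supplied annotation. After 57 controls were left out, 31042 probe sets remained. Symbols were updated through RefSeq (assembly GRCr8), for 11336 probe sets and 8106 genes; 216 probe sets matched several genes and 5634 none.

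The deposited ratios were turned to log2, centred per array and averaged per gene. limma 3.58.1 (R 4.3.3) fitted 4 group means over all 20 arrays with 16 residual degrees of freedom, and was tested on simulated data. Array measures were compared by exact permutation over 252 splits. Absolute signal is unknown, so no filter beyond the present calls was possible. Promoter windows are RefSeq's.

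Deviations from the group means correlated at 0.377, 0.319, 0.39, 0.242 and 0.437 in the same-numbered pairs. Other pairs had a median of -0.13 and ran from -0.493 to 0.439, so the highest of them exceeded every same-numbered pair. On the medians the numbers were taken to pair the samples, which the labels do not state. The main fit held no replicate block, so its standard errors, adjusted p-values and counts leave this pairing out. With the block more genes passed at 96 h (1998 rose and 3146 fell, against 1272 and 2495). Blocked values are given where they change a call at 96 h or move a count by over 1.5 times. For the difference from 24 h they are given for a few genes only.

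The comparison and the 41 lists were chosen with earlier results of these data known. Genes named are the 15 largest rises and falls that moved one way in 5 of 5 pairs, up to 5 list members with the smallest p, the 5 largest differences from 24 h each way, fixed cell type markers, and every member of a count of 5 or fewer; not all are printed, and a few genes are not reported here. Fos and Ntf3, and Ret, Gpam, Homer1 and Nrn1 for their difference from 24 h, were chosen after their values were seen. Alternatives were no centring, cyclic loess, the replicate block, 96 h arrays alone, the hybridisation covariate, array weights, a 1.5-fold minimum, 1 probe set per gene, all probe sets and each array left out. Fits without both replicate 5 arrays and without cocultured arrays 1 and 5 were added after seeing the data.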

Additional observations from a re-analysis of the deposited data

Results flagged for a closer look

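In groups of 5 arrays, 29 of the 296 groups examined (148 genes given with values, 2 groups each) had an array whose gap to the nearest of the others was over 0.71 of the range of its group, where chance gives about 1 in 20, and 13 of the 29 were cocultured replicate 5. That array was the highest of the cocultured group for Gja1 (3.29), Ndrg2 (3.13), Epas1 (2.86), Cdk1 (1.56), Elavl3 (1.16) and Mbp (0.76). It was the lowest for Kcna4 (-1.48), Ier2 (-1.24), Ndufs7 (-1.14), Sc5d (-1.11), Nr4a2 (-0.75), Vgf (-0.71) and Ina (-0.63). Of the other cocultured arrays, replicate 1 stood apart for B2m (-1.34) and Nfil3 (0.10) and replicate 4 for Dlg2 (-0.74). Control replicate 5 stood highest for Znf383 (0.36), Fgfr2 (0.057), Basp1 (0.048), Gsta4 (-0.071), Rrm2 (-0.30), Ndrg2 (-0.53) and Sox2 (-1.14), and lowest for Selenoi (0.78), Tle4 (-0.72) and Sparcl1 (-1.30). Control replicate 2 stood highest for Btg2 (0.71) and Aars1 (0.43), and control replicate 1 for Snap25 (0.28).

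The change at 96 h minus that at 24 h passed the limma test upward for Dgkb (1.51), Tm7sf2 (1.23), Inhbb (1.17), Lss (1.17) and Tmem254 (1.13). It passed downward for Lpl (-2.27), Ier5 (-1.45), B2m (-1.31), Ak4 (-1.18), Znf383 (-1.07), Nrn1 (-1.0), Ret (-0.99), Gpam (-0.69) and Homer1 (-0.65).

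Outside the expressed genes, the hybridisation controls were higher in cocultured arrays by 1.33 and the median of the other probe sets by 0.27 on the log2 scale. Their part in the changes of the genes was not tested beyond the covariate.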

How the results depend on the processing

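Against 1272 genes that rose, 2495 that fell and 35 that differed from 24 h, no centring gave 599 rises and 4 differences, the replicate block 1998 and 665, and array weights 2074 and 1268. The hybridisation covariate gave 786 rises, 964 falls and 151 differences, and with the replicate block 8 rises and 3 falls. A 1.5-fold minimum gave 81, 98 and 1. All 31042 probe sets, named or not, gave 7468, 3917 and 20, with a median change of 0.33 and 65.6% of calls upward. Without cocultured arrays 1 and 5 there were 758 rises and 69 differences, and without both replicate 5 arrays 102 differences. Leaving out 1 array at a time gave 919 to 1395 rises, 2010 to 2754 falls and 26 to 75 differences. The causes were not tested. So too the expressed median difference ran from -0.29 to -0.15, that of other probe sets from 0.18 to 0.33, that of the interquartile range from 0.0011 to 0.20 and that of the hybridisation controls from 1.09 to 1.61. Of 134 called genes given with values, 134 kept their call with the replicate block, which added 5 (Mog, Tubb3, Map2, Top2a and Tmem254) and changed no other call at 96 h; 127 kept it without centring, 128 after cyclic loess, 102 with the covariate, 4 with covariate and block, and 126 to 134 without 1 array. Signs turned, where either fit made a call, for Anxa4 (0.16) and Stmn2 (0.23) after cyclic loess, for Basp1 (-0.11), Dlg2 (0.12) and Top2a (-0.54) with the first probe set alone, for Flt1 (-0.23), Mcm6 (0.094), Tle4 (0.17), Tubb3 (0.56) and Stmn2 (0.36) with the covariate, and for Egr1 (-2.41), Ret (0.084), Syt4 (0.24) and Vars1 (-0.042) with covariate and block. On simulated data 42% of genes changed by 0.5 on the log2 scale were recovered and 90% of those changed by 1. The simulated noise was independent between genes and arrays, with no pairing and no array-wide or hybridisation difference. Only 50 of 8106 genes changed at each size, so these shares need not hold for the real arrays. Signal over background is unknown.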
